A study of Mus musculus with 4 samples.

Results

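miR-320 is a microRNA that cells make without Drosha, the nuclear enzyme that frees most miRNA hairpins from their primary transcripts. It was followed here as 1 of 414 mouse miRNAs on a capture array, through the single probe named mmu-miR-320, in 4 mouse hepatocarcinoma cell lines. It was chosen by its measured intensities, namely its levels in all lines and the disagreement of its 4 spots in H22, so all of its levels are descriptions and none was tested. H22 grows in suspension and has no lymphatic metastasis ability. Hepa1-6 is adherent and also has none. Hca-P and Hca-F were both derived from H22 and are suspension lines. The ability of Hca-P to spread to lymph nodes is lower and that of Hca-F higher. Cells of these sublines were, according to the labels, passed through the abdominal cavity of mice for about 7 days, recovered from the ascites and cultured in RPMI-1640, whereas Hepa1-6 was cultured in DMEM. The protocol names no such step for H22. All lines were untreated, and 1 array of total RNA was made per line, so no difference between lines has a replicate check.

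Most miRNAs are cut out of a long primary transcript by Drosha and its partner DGCR8 and are then trimmed by Dicer. In mouse stem cells miR-320 is known to come from a short hairpin that keeps the cap of its transcript and needs Dicer but not Drosha or DGCR8, a path it shares with miR-484. Mirtrons such as miR-877 and miR-702 bypass Drosha in another way, since splicing frees their hairpins as introns. In human tumour cells miR-320a is known to repress beta-catenin, and in mouse mammary fibroblasts miR-320 restrains a secretome that favours tumour spread. The gene Mir320 lies at chr14:70443510-70443591 in GRCm38.p6, overlaps no other gene of the RefSeq annotation, and is separated by 38 bases from Polr3d at chr14:70438748-70443471, which encodes a subunit of RNA polymerase III. Human miR-320 is known to silence that neighbour in cultured cells.

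The RefSeq mature sequences (GRCm38.p6) shown next are those of miRNAs that the results turn on, with bases 2 to 8, the seed that pairs with target mRNAs, in capitals. miR-762 (chr7:127708534-127708555, plus strand) and miR-129-5p (a copy at chr2:94241419-94241439, minus strand) are among the 5 miRNAs nearest to miR-320 in pattern, of which 2 had an entry. miR-484 (chr16:14159630-14159651, plus strand) and miR-877 (chr17:35960795-35960814 for its 5p arm and chr17:35960731-35960752 for its 3p arm, minus strand) are Drosha-independent.
miR-762: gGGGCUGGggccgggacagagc
miR-129-5p: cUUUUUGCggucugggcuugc
miR-484: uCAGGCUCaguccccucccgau
miR-877-5p: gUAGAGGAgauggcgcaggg
miR-877-3p: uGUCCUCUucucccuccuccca
No 2 of these 5 sequences share a seed. Their length was 20 to 22 bases, and their content of G and C ran from 57.1% in miR-129-5p to 81.8% in miR-762.

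Each probe was printed as 4 spots, and an intensity is the brightness of a spot after subtraction of its local background. A level is the mean intensity of the 4 spots divided by the median of 65 reference probes of the same array, so that 1 is that median. A mean intensity under 50 was treated as not measured, which corresponds to levels of 0.124 to 0.154. Of the 414 miRNAs, 71 to 87 were measured in an array and 103 in at least 1. The number of arrays limits the precision of every comparison.

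miR-320 was bright in Hca-P and Hca-F, dimmer in Hepa1-6, and uneven in H22. In Hca-P its 4 spots read 4292, 5148, 5058 and 6155 intensity units, in the order of blocks 1, 9, 17 and 25 of the slide. In Hca-F they read 3440, 4742, 4773 and 4049. The levels were 13.0 ± 1.93 in Hca-P and 13.1 ± 1.96 in Hca-F (SD over 4 spots of 1 array), and the spots of both lines overlapped. In Hepa1-6 the spots read 2172, 861, 1501 and 985, a level of 3.42 ± 1.48. In H22 they read 1739, 152, 69 and 32, a level of 1.36 ± 2.26, so that the SD exceeded the mean. The spot at 32 was under the detection minimum. No spot of H22 or Hepa1-6 reached the dimmest spot of Hca-P or Hca-F: the highest stood at a level of 5.38, against 10.6 for the lowest in Hca-F and 10.8 in Hca-P. The local background was 32 to 35 units at every one of these 16 spots and did not differ between the bright and the dim spots of H22.

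**Figure D1:**
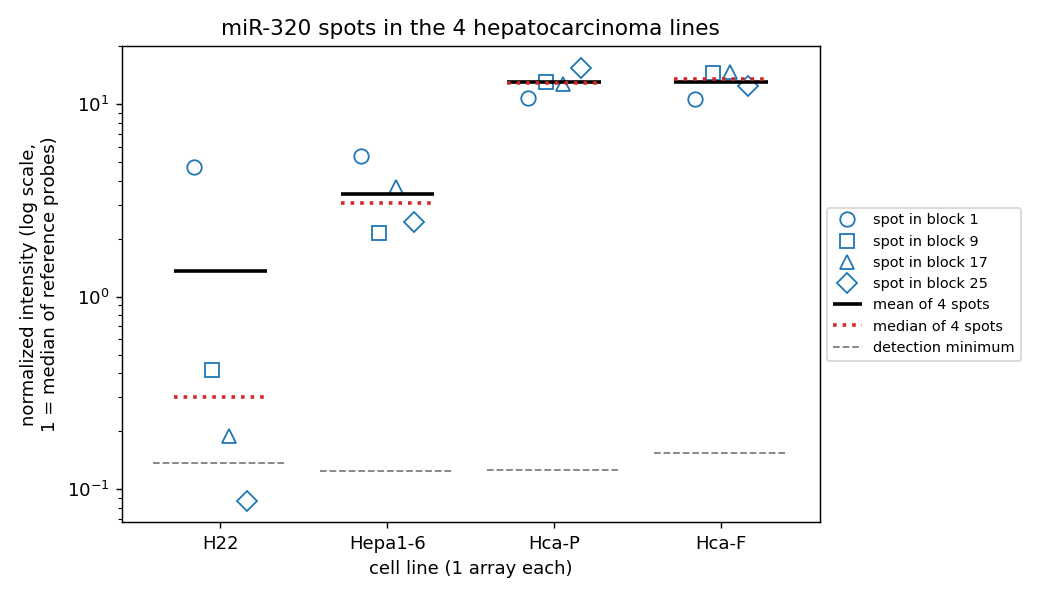
Normalized intensity of the 4 spots of the miR-320 probe in each line (log scale, open symbols by block), with the mean (black), the median (dotted) and the detection minimum of each array (dashed). The H22 spots run from 0.0872 to 4.74, while those of Hca-P lie between 10.8 and 15.5.

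The order of the levels from low to high was H22, Hepa1-6, Hca-P and Hca-F, with Hca-P above Hca-F in 6 of the 15 alternative settings (log2 differences of -0.50 to -0.01). Hca-F and Hca-P were 1.01-fold apart, with a spot-by-spot SD of 0.24 on the log2 scale, and Hca-F was the higher at 2 of 4 spot positions. They did not differ beyond the spread of the spots. H22 and Hepa1-6 were 2.52-fold apart on the means (log2 difference -1.33, spot-by-spot SD 1.93), which is within the spread of the spots, although H22 was the lower at 4 of 4 positions. The median of the 4 spots was 4395.5 intensity units in Hca-F, 5103 in Hca-P, 1243 in Hepa1-6 and 110.5 in H22. On the medians the levels were 13.5, 12.9, 3.08 and 0.301 with the factors unchanged, which leaves the order of the lines as on the means.

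Against H22, Hca-P was 9.60-fold higher (log2 3.26, spot-by-spot SD 2.50) and Hca-F 9.65-fold (log2 3.27, SD 2.48). How large this difference was depended on the spot. At block 1 Hca-P was 2.29-fold higher than H22, at block 9 31.4-fold, at block 17 67.9-fold and at block 25, where the H22 spot was under the detection minimum, at least 114-fold. Hca-F was 2.24-fold, 35.3-fold, 78.2-fold and at least 91.6-fold higher at the same positions. All 8 position-by-position values were above 2-fold. Without the block 1 spot of H22, which carried 87.3% of the summed signal of its 4 spots, the level in H22 was 0.230 ± 0.167 over 3 spots and the log2 differences became 5.83 for both lines. With the median of spots they were 5.25 for Hca-P and 5.35 for Hca-F. Among 98 miRNAs measured in Hca-P or H22, 15.3% were 2-fold or more higher in Hca-P and 34.7% lower, and miR-320 ranked at 2 by fold. Among 95 measured in Hca-F or H22, 14.7% were 2-fold or more higher in Hca-F and 17.9% lower, and miR-320 ranked at 1. When the 75th percentile of the mouse probes set the factor, the shares higher were 23.5% in Hca-P and 32.6% in Hca-F. Folds against an unmeasured miRNA are bounds, so these ranks may be too high. These shares are printed as background, since the same values served to choose miR-320. Both comparisons share the H22 array.

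Against Hepa1-6, whose spots were less uneven, Hca-P was 3.81-fold higher (log2 1.93, spot-by-spot SD 0.78) and Hca-F 3.83-fold (log2 1.94, SD 0.77). By position Hca-P was 2.01-fold to 6.37-fold and Hca-F 1.97-fold to 6.85-fold higher, each at 4 of 4 positions, with the smallest value at block 1. Of 89 miRNAs 31.5% were 2-fold or more higher in Hca-P than in Hepa1-6 and 24.7% lower, and of 81 miRNAs 27.2% were higher in Hca-F and 9.88% lower. miR-320 ranked at 14 among the former and at 3 among the latter. A difference of this size was therefore common in the comparison of Hca-P with Hepa1-6. Quantile normalization brought the log2 difference between Hca-P and Hepa1-6 to 1.08. With the 75th percentile of the mouse miRNAs measured in all arrays it was 1.07, and both values were still above 2-fold. With that percentile the difference between Hca-F and Hepa1-6 was 1.08.

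Between the metastatic sublines, 23.5% of 85 miRNAs were 2-fold or more higher in Hca-F and 12.9% lower, a balance that turned to 7.06% and 17.6% without scaling and to 3.53% and 25.9% where all capture probes set the factor, while miR-320 was 2-fold apart under none of the 15 alternative settings. Of these settings, the deposited normalized values and the omission of the brightest H22 spot could not change this pair. The median log2 difference of all 85 was 0.45, so that miR-320 lay 0.44 below it. Between H22 and Hepa1-6, 3.26% of 92 miRNAs were 2-fold or more lower in H22, and miR-320 was 1 of these 3, while 33.7% were 2-fold or more higher there. The share of lower miRNAs became 23.9% by quantile normalization and 40.2% when the 75th percentile of the mouse probes set the factor, so the share rests on the scaling.

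**Figure D2:**
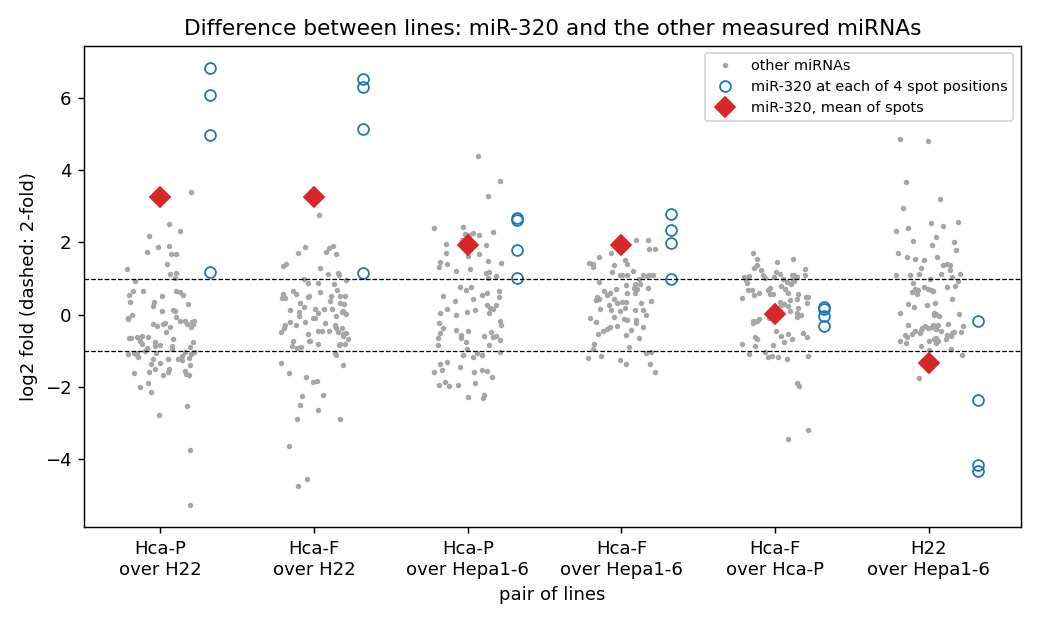
Log2 difference of every measured miRNA in each of the 6 pairs of lines (grey), of miR-320 from the mean of its spots (red) and at each of its 4 spot positions (open circles), with dashed lines at 2-fold. The positions spread from 2.29-fold to at least 114-fold for Hca-P over H22, and from 0.803-fold to 1.15-fold for Hca-F over Hca-P.

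No other probe of the H22 array was as uneven in this way. Of 458 probes of any kind with a mean of 50 or more in H22, miR-320 alone had a highest spot more than 5 times its median spot, at 15.7 times. The largest value among the others was 2.68 times and their median 1.16 times. In Hepa1-6, Hca-P and Hca-F the same ratio for miR-320 was 1.75, 1.21 and 1.09. The CV over its spots was 15.0% in Hca-F, 14.8% in Hca-P, 43.2% in Hepa1-6 and 166% in H22, beside medians of 15.5% to 21.9% over all measured probes of an array.

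**Figure D3:**
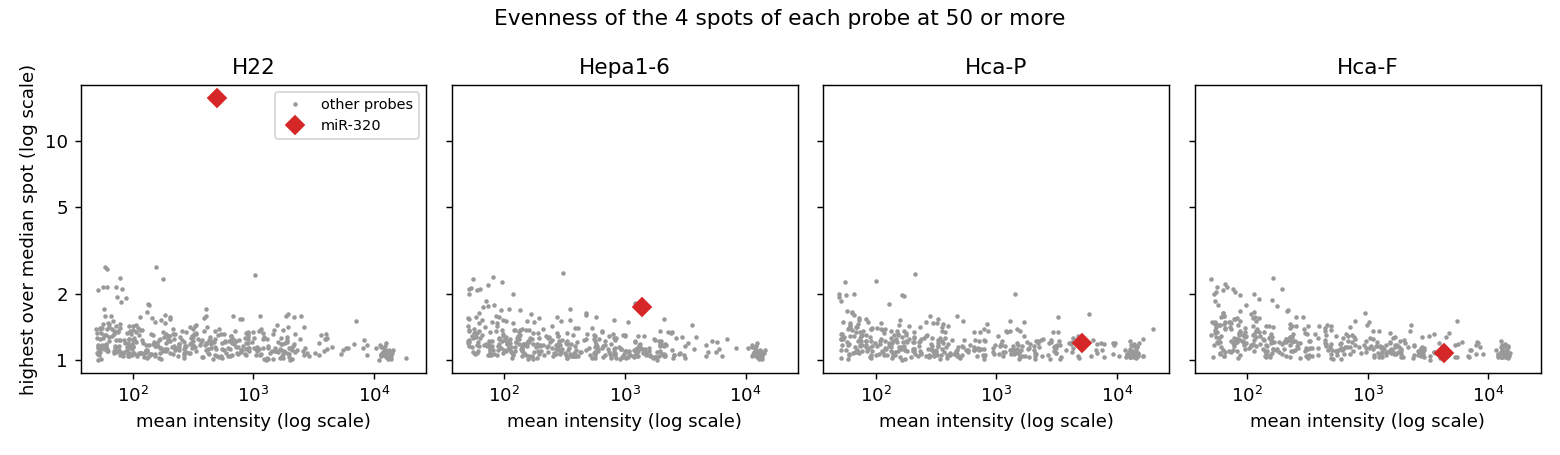
Highest spot over the median spot against mean intensity (both log scale) for each probe at 50 or more, by array, with miR-320 in red. miR-320 stands at 15.7 in H22, where the others reach at most 2.68, and lies among the other probes in Hca-P and Hca-F.

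The probes whose H22 spots disagreed most lay in the first rows of the same blocks. The miR-320 probe sits at column 7 of row 1 in blocks 1, 9, 17 and 25, each of 17 columns and 18 rows. Of the 458 probes in H22, 4 had a spot SD above their mean, and all 4 lay in the first 2 rows of this set of blocks, where 11 of the 458 were. In Hepa1-6 there was 1 such probe among 427, in the same rows, and none in Hca-P or Hca-F. The other 3 in H22 had the opposite order. miR-26a, a miRNA with growth-restraining activity in liver, read 12, 8, 124 and 147 units at blocks 1, 9, 17 and 25. The probe directly under miR-320, not designed for mouse, read 13, 6, 164 and 170 in H22 and 8, 5, 227 and 235 in Hepa1-6. In Hca-P it read 52, 258, 229 and 275 and in Hca-F 63, 395, 388 and 442. The neighbour to the right, miR-370, an miRNA of the Dlk1-Dio3 imprinted cluster, read 14, 149, 151 and 159 in Hca-P and 15, 131, 89 and 108 in Hca-F. The block 1 spots of these neighbours were thus the lowest or next to the lowest in each array, whereas the block 1 spot of miR-320 was the highest in H22 and Hepa1-6 and the lowest in Hca-P and Hca-F.

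Block 1 as a whole was not brighter in H22. Over the 57 other measured probes of these blocks the median ratio of a spot to its probe mean was 0.973 at block 1, 0.891 at block 9, 1.07 at block 17 and 1.10 at block 25. For miR-320 the same ratios were 3.49, 0.305, 0.139 and 0.0643. In Hepa1-6 they were 1.57, 0.624, 1.09 and 0.714 for miR-320, and 1.02, 1.02, 1.07 and 0.944 for 49 other probes. In Hca-P and Hca-F the ratios of miR-320 stayed between 0.809 and 1.19. The deviations of spots from their probe mean ran together in H22 and Hepa1-6 (r = 0.762 over 1312 spots of 328 probes, miR-320 left out) and in Hca-P and Hca-F (r = 0.706 over 1220 spots of 305 probes), and at 0.147 to 0.310 in the other 4 pairs of arrays. These spots share their print position and are no replicates of a line. The arrays that deviated together are those of the lines without and with lymphatic metastasis, so the 2 groupings cannot be told apart. Probes named Hy3, after the label, read nearly alike in H22 and Hepa1-6. The first read 11774 and 11772 units there, against 12811.25 in Hca-P, and another read 14389.75 and 14390. Whether the H22 and Hepa1-6 values are independent of each other was not tested. The part of print position in the levels of miR-320 was not tested either.

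**Figure D4:**
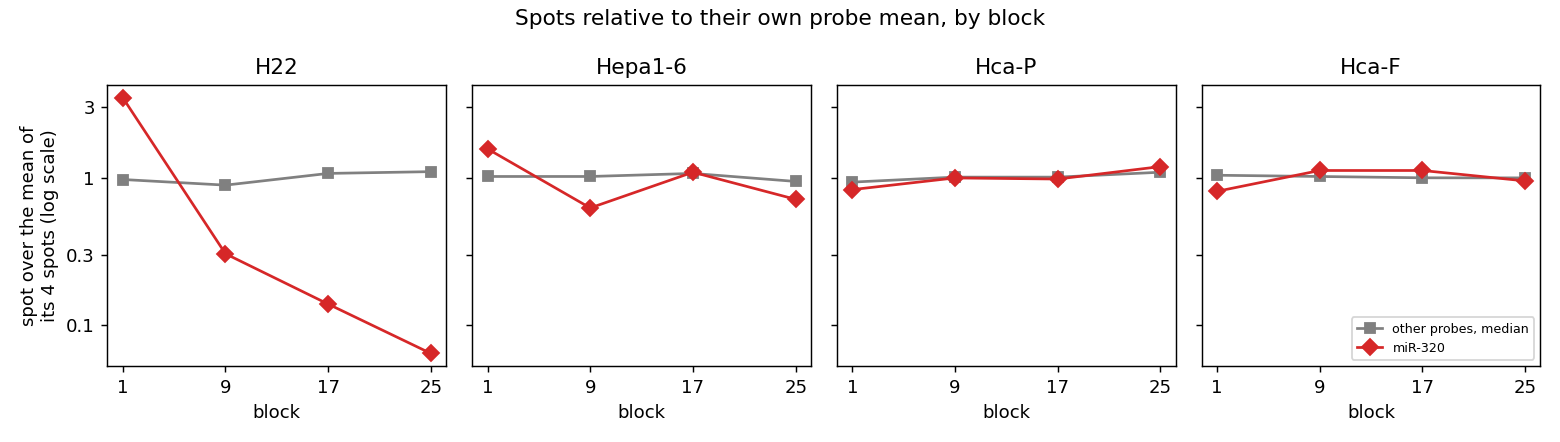
Ratio of each spot to the mean of its 4 spots (log scale) at blocks 1, 9, 17 and 25, for miR-320 (red) and as the median over the other measured probes of the same blocks (grey), by array. In H22 miR-320 runs from 3.49 to 0.0643 while the other probes stay between 0.891 and 1.10.

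The miRNAs whose pattern over the lines was nearest to that of miR-320 were found by the root mean square difference of log2 levels, each centred on its mean over the 4 lines. Among 102 other measured miRNAs this distance ran from 0.26 to 3.39 with a median of 1.55. miR-762 was nearest, at 0.26, with levels of 3.51 ± 0.193 in Hca-F, 5.41 ± 0.794 in Hca-P, 1.00 ± 0.214 in Hepa1-6 and 0.519 ± 0.0757 in H22. Its H22 spots were even, and it too was lowest in H22 and highest in the metastatic sublines. miR-801, a name given to a piece of U11, a small nuclear RNA of the minor spliceosome, followed at 0.52, with 2.39 ± 1.07, 3.77 ± 1.75, 0.798 ± 0.0788 and 0.659 ± 0.0544 in the same order of lines. miR-129-5p, a miRNA rich in brain, lay at 0.56, with 3.96 ± 0.314, 3.98 ± 0.724, 1.47 ± 0.0867 and 1.06 ± 0.329. Like miR-320 it was level between Hca-P and Hca-F. miR-805, which is read from mitochondrial RNA, lay at 0.61 and was under the detection minimum in H22, with 0.485 ± 0.120 in Hca-F, 0.452 ± 0.0652 in Hca-P and 0.182 ± 0.0374 in Hepa1-6. miR-720, known as a tRNA fragment, lay at 0.61 as well, with 0.744 ± 0.0627, 1.05 ± 0.204, 0.226 ± 0.0277 and 0.232 ± 0.0190. Of these 5, then, 3 are known as fragments of other RNAs. The share of such fragments among the 102 was not counted. Of the 3, miR-720 left the nearest 5 with the median of spots and miR-801 with quantile normalization. The lower of the 2 sublines exceeded the higher of H22 and Hepa1-6 by 3.81-fold for miR-320 and by 2.48-fold to 3.51-fold for these 5. Since the 5 were chosen for their likeness to miR-320 on these same arrays, that they share its order of lines follows from the choice.

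With the median of spots the H22 level of miR-320 fell so far that no miRNA stayed close. The smallest distance became 1.06, again that of miR-762, and 4 of the 5 nearest miRNAs were shared with the first 5, miR-705 taking the place of miR-720. After quantile normalization 4 of the first 5 were shared as well, but miR-705 was nearest, miR-762 came last of the 5 and miR-801 dropped out. With 4 lines, 1 array each, nearness in pattern is a description of these arrays.

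**Figure D5:**
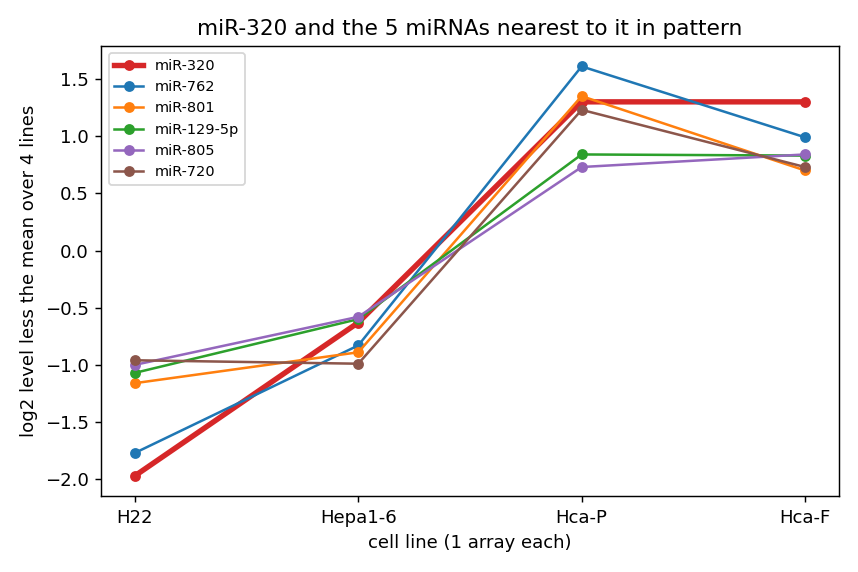
Log2 level less the mean over the 4 lines for miR-320 (thick red) and the 5 miRNAs nearest to it in pattern. miR-320 runs from -1.97 in H22 to 1.30 in Hca-P and Hca-F, and miR-762 from -1.77 in H22 to 1.61 in Hca-P.

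Of the other Drosha-independent miRNAs only miR-877 was measured, and it was not 2-fold apart between any 2 lines. Of 9 such miRNAs listed beside miR-320, 3 were on the array under these names. miR-484, which has the same capped-hairpin path, was under the detection minimum in every line, with mean intensities of 15.75 in Hca-F, 17.25 in Hca-P, 6.5 in Hepa1-6 and 23.25 in H22. The mirtron miR-702 was also under it, at no more than 12.5 units. The mirtron miR-877, whose probe does not give the arm, was measured in all lines and stood at 0.294 ± 0.0890 in Hca-F, 0.251 ± 0.0444 in Hca-P, 0.347 ± 0.0211 in Hepa1-6 and 0.281 ± 0.0604 in H22. Its lines overlapped within the spread of their spots except that Hepa1-6 lay above Hca-P, by 1.38-fold. Its log2 differences lay between -0.47 and 0.23 over the 6 pairs, none of them 2-fold. With 1 measured member besides miR-320, no summary of this list was made.

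A list of 12 widely expressed miRNAs that need Drosha was all on the array, and apart from let-7a no member exceeded 147.5 units. In H22 6 of them were measured, in Hca-P 4, and in Hepa1-6 and Hca-F 1 each. Of all 414 miRNAs, 87 were measured in H22, 75 in Hca-P, 71 in Hepa1-6 and 74 in Hca-F. let-7a, which restrains RAS and HMGA2, was at 11.0 ± 1.17 in H22 and 5.15 ± 0.448 in Hca-P, against 0.396 ± 0.0807 in Hepa1-6 and 0.475 ± 0.0670 in Hca-F. miR-24, of the miR-23-27-24 clusters, was at 0.402 ± 0.217 in H22 and 0.210 ± 0.0496 in Hca-P, which overlap within the spread of the spots. It was not measured in the others. miR-21, a miRNA raised in many tumours, was measured in H22 alone, at 72.75 units. Between Hca-P and H22 none of 7 measured members was 2-fold or more higher and 2 were lower. Over all 98 miRNAs 15.3% were higher and 34.7% lower. The median log2 difference of the members was -0.65, beside -0.62 over all 98. Between Hca-F and H22 none of 6 was higher and 2 were lower. Over all 95 miRNAs 14.7% were higher and 17.9% lower. The median of the members was -0.80, beside -0.09 over all 95. Against Hepa1-6, 1 of 4 members was higher in Hca-P and none lower, beside 31.5% and 24.7% of 89 miRNAs (medians 0.66 and 0.07). Of 6 members, 4 were higher in H22 than in Hepa1-6 and none lower, beside 33.7% and 3.26% of 92 (medians 1.12 and 0.31). In Hca-F 1 of 4 was lower than in Hca-P and none higher, beside 12.9% and 23.5% of 85 (medians -0.34 and 0.45). Between Hca-F and Hepa1-6 only let-7a was measured, and it was not 2-fold apart. miR-15b, miR-30b, miR-30c, miR-92a and miR-107 were measured in no line. Unmeasured values entered at the detection minimum, which pulls these medians toward 0.

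Markers of cell types were low throughout. The hepatocyte miRNAs miR-122, miR-192, miR-194 and miR-148a were under the detection minimum in all lines, and miR-122, which dominates normal liver, read 12.25 to 33 units. The arrays thus do not show this hepatocyte marker in the lines labelled as hepatocarcinoma. The widely expressed miR-92a and miR-30c were under the detection minimum in every line too, and the identity of the cells was not tested. Of 5 leukocyte miRNAs 1 was measured, miR-142-5p at 59.25 units in Hca-P, and the summed intensity of the 5 was 74.2 in Hca-F, 128 in Hca-P, 13.5 in Hepa1-6 and 72.8 in H22. Its other arm, miR-142-3p, was under the minimum but also highest in Hca-P, at 32 units against 0.25 to 8.75 in the other lines. The other leukocyte miRNAs were under the minimum in every line and did not share an order of lines. miR-155 was highest in H22, at 43.75 units against 12.5 in Hca-P. miR-223 read 5.0 to 22.75 units and was highest in Hca-F, against 13.25 in Hca-P. miR-150 was highest in Hca-P, at 11.0 units against 1.5 to 8.5 in the other lines. No erythroid or endothelial marker was measured. Of 4 mesenchymal markers 1 was, miR-214, at 70.5 units in H22, 97.5 in Hepa1-6 and 87.5 in Hca-F, and under the minimum in Hca-P. The leukocyte sums ran from under to above the local background, which was 31 to 56 units over the arrays. The part of these markers in the levels of miR-320 was not tested.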

How the data were processed

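Total RNA of 4 lines was labelled with Hy3 and hybridised to miRCURY arrays, 1 per line. Per the labels, arrays were read on a GenePix scanner, spots were averaged, and probes at 50 or more in all samples gave a median factor. The authors deposited linear intensities: foreground, background-subtracted, and normalized. Averaging the 4 deposited spots after background subtraction gave the deposited value of each probe, and division by the array median of 65 reference probes gave the normalized one. The factors were 324.5 for Hca-F, 396.25 for Hca-P, 403.75 for Hepa1-6 and 367 for H22. Of 417 mouse probes, 3 names occurred on 2 probes each, and the brighter was kept. Folds set means under 50 to 50, and position-by-position folds did so for single spots.

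No test between lines was made, since each line has 1 array. The miRNA, the lists and the rule for named miRNAs (miR-320, list members, markers, the 5 nearest in pattern, and unevenly spotted probes) were chosen with earlier results of these data known. miR-370 and the probe under miR-320 were named after their values were seen, for their position. Python 3.11.15, numpy 2.4.6 and, for normexp (offset 50) and quantile normalization, limma 3.58.1 were used. The 2-fold rule and the distance in pattern were tested on simulated data with known differences. The simulated base intensities all lay above the detection minimum and the spots varied independently, which is not so of these arrays. Alternatives were 4 further scalings beside quantile normalization, 2 background treatments, other summaries of spots, each spot position left out, other detection minimums, and the deposited normalized values. The RefSeq sequences came from 1 table of GRCm38.p6.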

Additional observations from a re-analysis of the deposited data

How the results depend on the processing

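The log2 differences of miR-320 were recomputed under 15 settings, of which 1 (the median of spots for miR-320 alone) was added after the data were seen, and none changed the direction of a difference of 2-fold or more. The deposited normalized values repeat the main setting, and leaving out the brightest H22 spot changes only pairs with H22. Without the brightest H22 spot the difference was 5.83 for Hca-P and for Hca-F over H22 and -3.89 for H22 over Hepa1-6, which the median of spots put at -3.31 and the median for miR-320 alone at -3.35. Leaving out each spot position in turn gave 2.75 to 5.83 for Hca-P over H22, 2.70 to 5.86 for Hca-F over H22, 1.58 to 2.26 for Hca-P over Hepa1-6, 1.53 to 2.29 for Hca-F over Hepa1-6, -0.05 to 0.02 for Hca-F over Hca-P and -3.57 to -0.86 for H22 over Hepa1-6. The high ends for H22 came without the spots of blocks 1 to 8, and -0.86, without blocks 17 to 24, was the 1 value under 2-fold among the 5 pairs past it. Quantile normalization gave 1.08 for Hca-P over Hepa1-6, the 75th percentile of the mouse probes measured in all arrays 1.07 and, for Hca-F over Hepa1-6, 1.08. Hca-F over Hca-P was -0.28 without scaling and -0.50 where all capture probes set the factor, both under 2-fold. Counts of miRNAs 2-fold apart moved by over 1.5 times in 34 of 96 recounts: those higher in Hca-F than in Hepa1-6 were 22, and 8 after quantile normalization, those higher in Hca-F than in Hca-P 20 (11 lower) and 3 (22 lower) with all capture probes, and those lower in H22 than in Hepa1-6 3 and 37 with the 75th percentile of the mouse probes. The causes were not tested, and the settings that leave spots out also rest on fewer spots. No paired analysis was possible because each line has 1 array. Signals near the background limit what can be said of miR-484 and miR-702.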

Other observations

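Probes that carry no mouse miRNA name also held patterns close to that of miR-320. Of 360 measured probes that were miRPlus sequences of the maker or not designed for mouse, 13 (3.61%) were as near as the fifth mouse miRNA or nearer, against 5 of 102 mouse miRNAs (4.90%). The latter share was fixed by the choice of the fifth mouse miRNA as the limit. The nearest, miRPlus_17896, lay at a distance of 0.25 and read 465 units in Hca-F, 669 in Hca-P, 171 in Hepa1-6 and 86.75 in H22. In 24 of the 360, both metastatic sublines were 2-fold or more above both other lines, as in 6 of 103 measured mouse miRNAs, miR-320 included. The files give no target for the probes not designed for mouse, so whether any of them binds miR-320 was not tested.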
